A study of Homo sapiens with 6 samples.

Results

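BRACHYURY (BRA) binding was examined at 7 genes of the lateral mesoderm and of BMP signalling: HAND1, HAND2, ISL1, MSX1, MSX2, BMP2 and BMP4. Peaks were taken from all 4 deposited lists when their midpoint lay in the gene body or within 50 kb on either side of it, in hg19 coordinates. This gave 45 peaks of 54994, namely 15 with the R&D Systems antibody in FLyA, 26 with the same antibody in FLyB, none with the Santa Cruz antibody in FLyA and 4 with it in FLyB. The windows cover 749 kb in all and are defined by position.

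The cells were H9, an established line of human embryonic stem cells (hESCs), collected after 36 h in chemically defined differentiation media. Both media contained FGF2 (20 ng/ml) and LY294002 (10 μM), an inhibitor of PI3 kinase. FLyA medium also held activin A (100 ng/ml) and yields endoderm progenitors, and FLyB medium held BMP4 (10 ng/ml) in its place and yields mesoderm progenitors. The study describes FLyA cells as mainly low in BRA and FLyB cells as mainly high. Each medium was sequenced once per antibody, and the 2 input DNA libraries, 1 per medium, were not analysed here. A single line was used and each medium has 2 ChIP libraries, 1 per antibody, so the antibodies are the only repeats of a medium. The Santa Cruz libraries are described in the study as weaker, with fewer uniquely mapped reads and more noise relative to signal, and their lists are far shorter. The lists give positions of 400 bp each with no height, fold or p-value, so a peak counts as listed or not listed and the reads behind it are unknown.

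BRA is a T-box transcription factor that is switched on in the primitive streak, the site where cells of the epiblast leave to form mesoderm and endoderm. Lateral plate mesoderm later forms the heart, the body wall and the limb buds, and BMP ligands act in its patterning. HAND1 and HAND2 encode related basic helix-loop-helix factors of lateral plate mesoderm and heart, ISL1 a LIM-homeodomain factor of second heart field progenitors, and MSX1 and MSX2 homeodomain factors that respond to BMP signalling. BMP2 and BMP4 encode closely related ligands of the TGFβ superfamily that signal through SMAD1, SMAD5 and SMAD9.

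The 7 genes differed in which medium held their peaks. HAND1 stood apart with 13 R&D Systems peaks in FLyB and 3 in FLyA, though with 20 kb flanks it held 5 and 0. ISL1 had the opposite balance, with 3 in FLyB and 7 in FLyA. MSX1 (3 and 1), MSX2 (4 and 1) and HAND2 (2 and 1) had more peaks in FLyB than in FLyA, but by no more than 3 peaks. Of the ligand genes, BMP4 had a single peak, in FLyB, and BMP2 had 2 peaks, both in FLyA. With the Santa Cruz antibody in FLyB, HAND1, ISL1, MSX1 and MSX2 had 1 peak each and HAND2, BMP2 and BMP4 had none. In the Santa Cruz FLyA list no window held a peak. With the antibodies taken as repeats, the 4 lists held 15 and 0 peaks in FLyA and 26 and 4 in FLyB. For each antibody the FLyB list held more, by 11 peaks with R&D Systems and by 4 with Santa Cruz. The media overlapped only where lists of different antibodies were set against each other. Within a medium the spread is the difference between the antibodies, whose lists differ greatly in length. The mean difference was 7.5 peaks per list, FLyB above FLyA (exact two-sided permutation test, p = 0.667, n = 2 lists per medium). The smallest p for 2 lists per medium is 0.333, but it was out of reach, since the lists differ more by antibody than by medium. The test therefore cannot decide whether the media differ. HAND1, with 3 and 0 peaks in FLyA and 13 and 1 in FLyB, gave the same p, and ISL1, with 7 and 0 in FLyA and 3 and 1 in FLyB, gave p = 1.0 in the same exact test. Pairing the lists by antibody cannot give a p under 0.5 and gave that value for the 7 windows and for HAND1 (exact paired permutation test). The differences between the media at single genes are therefore given as descriptions of the R&D Systems lists.

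**Figure D1:**
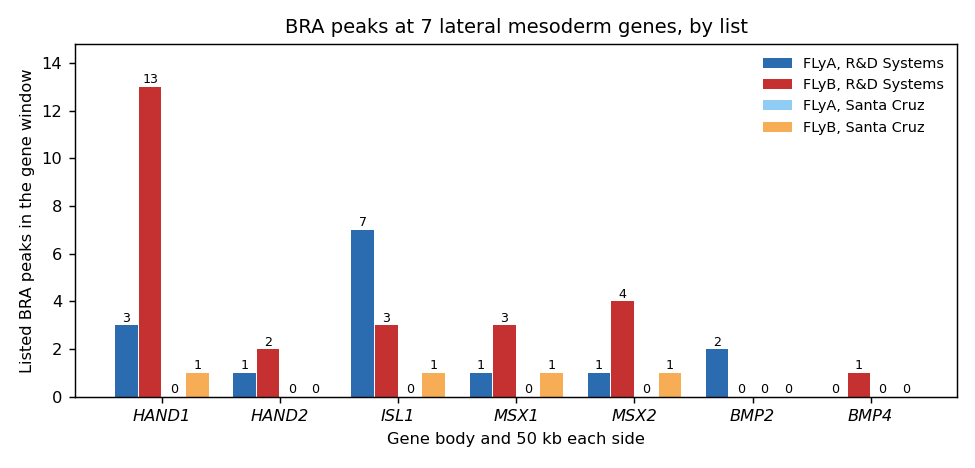
Bars give the number of listed BRA peaks (vertical axis) in the window of each gene (horizontal axis), 1 bar per list and 1 library per list, with the count printed above each bar. The FLyB R&D Systems bar of HAND1 reaches 13, the FLyA R&D Systems bar of ISL1 reaches 7, and no other bar exceeds 4.

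At the scale of the whole lists these windows were rich in peaks. The R&D Systems lists hold 8.50 peaks per Mb in FLyA and 7.78 per Mb in FLyB, against 20.0 and 34.7 per Mb in the 7 windows. The ratio was thus 2.36 in FLyA and 4.46 in FLyB. Each value rests in large part on 1 gene. Without the HAND1 window, the other 6 hold 12 FLyA and 13 FLyB peaks in 646 kb, or 18.6 and 20.1 per Mb, and the ratios were 2.19 and 2.59. Without the ISL1 window, 8 FLyA and 23 FLyB peaks remain in 637 kb, or 12.6 and 36.1 per Mb, and the ratios were 1.48 and 4.64. Windows around other genes were not counted, so whether such densities are particular to these 7 was not tested. For the shorter Santa Cruz lists, the density of the whole list would place 0.599 FLyA and 0.740 FLyB peaks in the windows, and 0 and 4 were found.

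To give a scale for single genes, the chromosomes were divided into 30450 tiles of 100 kb, which are close to the windows in width (103 to 112 kb). The tiles have fixed edges, whereas the windows are centred on genes and are slightly wider. A cluster that crosses a tile edge is split, and the HAND1 and ISL1 windows themselves cross such edges. The percentages below therefore describe tiles, and may be lower than the share of gene-centred windows with such counts, which was not measured. At least 13 R&D Systems FLyB peaks, as at HAND1, were found in 0.0460% of the tiles, and an excess of FLyB over FLyA peaks of at least 10 in 0.0197%. At least 7 FLyA peaks, as at ISL1, were found in 0.437% of the tiles, and an excess of FLyA over FLyB of at least 4 in 0.670%. The differences at the other genes were seen in larger shares of the tiles. An excess of FLyB of at least 3, as at MSX2, was seen in 2.58% of tiles, of at least 2, as at MSX1, in 6.74%, and of at least 1, as at HAND2 and BMP4, in 19.5%. An excess of FLyA of at least 2, as at BMP2, was seen in 8.19%. A tile with at least 1 FLyA peak (47.1%) or FLyB peak (40.3%) is common, and each R&D Systems list had at least 1 peak in 6 of the 7 windows. At least 1 Santa Cruz FLyB peak was found in 8.49% of tiles and in 4 of the 7 windows, and at least 1 Santa Cruz FLyA peak in 7.28% of tiles and in no window.

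**Figure D2:**
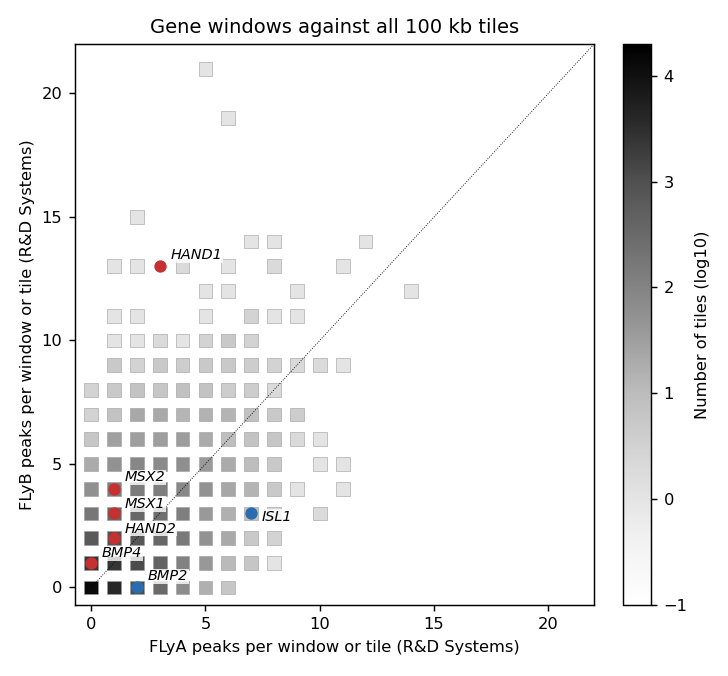
Each grey square is a pair of counts of R&D Systems peaks found in at least 1 tile of 100 kb, with FLyA peaks on the horizontal axis and FLyB peaks on the vertical axis, and darker squares stand for more tiles (log10 scale). Points are the 7 gene windows (red for more FLyB peaks, blue for more FLyA peaks) and the dotted line marks equal counts. HAND1 (3 and 13) lies at the sparse upper edge, ISL1 (7 and 3) lies to the right of the line, and the other 5 lie nearer the origin.

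The media shared only part of their sites at these genes. Among the 15 FLyA peaks, 9 had no overlapping FLyB peak of the same antibody (60.0%, exact 95% interval 32.3 to 83.7%), against 67.0% in the whole FLyA list. Among the 26 FLyB peaks, 20 had no overlapping FLyA peak (76.9%, 56.4 to 91.0%), against 63.9% in the whole FLyB list. Both list-wide shares lie inside the intervals, which cover counting error only and treat neighbouring peaks as independent, so the windows could not be told from the rest of the lists in this respect. Merging overlapping peaks of all 4 lists left 36 separate sites. In the R&D Systems lists, 20 of these were found in FLyB only, 9 in FLyA only and 6 in both media, and 1 was found with the Santa Cruz antibody alone. The 6 sites common to both media belong to HAND1 (3), ISL1 (2) and MSX2 (1). At each of them the FLyA and FLyB peaks lay close together, with midpoints between 13 and 47 bp apart.

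**Figure D3:**
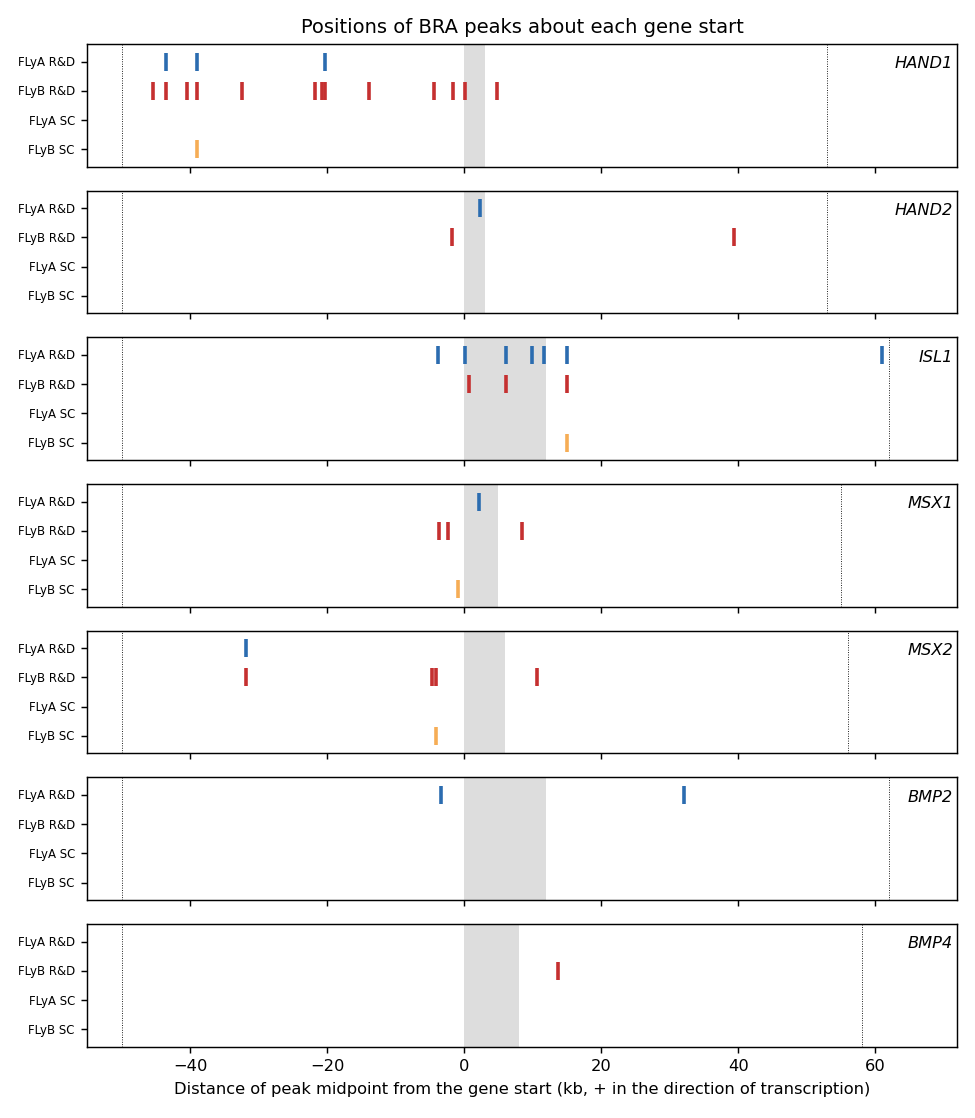
Each tick is the midpoint of a listed peak, placed by its distance from the gene start in kb (horizontal axis, positive in the direction of transcription), with 1 row per list (SC, Santa Cruz; R&D, R&D Systems) and 1 panel per gene. Grey marks the gene body and dotted lines the edges of the window; at HAND1 the FLyB ticks run from 45.4 kb upstream to 4.8 kb beyond the start, whereas the ISL1 ticks lie mostly in and next to the gene body.

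The HAND1 window (chr5:153805000-153908000, gene body to the nearest kb 153855 to 153858, read from the minus strand) held peaks of 3 of the 4 lists. The 13 FLyB peaks were arranged mainly on the 5′ side. Of these, 11 lay upstream at distances of 1.6 to 45.4 kb, 1 lay on the gene start (chr5:153857667-153858066) and 1 lay 4.8 kb downstream of the start, beyond the gene end (chr5:153852994-153853393). Their midpoints were a median of 2.88 kb apart, against 44.9 kb for neighbouring peaks in the whole FLyB list. Gaps inside a window that holds 13 peaks have to be short, so this spacing restates the count. In the RefSeq gene table, which is on another build and was used for names and order only, no protein-coding gene follows HAND1 within 50 kb on its upstream side, and SAP30L lies on the downstream side.

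All 3 FLyA peaks at HAND1 fell on FLyB peaks. The 3 common sites lie 20.3 kb (chr5:153878108-153878520), 39.0 kb (chr5:153896735-153897202) and 43.5 kb (chr5:153901255-153901701) upstream. The site at 39.0 kb also held the Santa Cruz FLyB peak, with its midpoint 68 bp from that of the R&D Systems peak, and was thus found in both FLyB libraries and in 1 of the FLyA libraries. Between the site at 20.3 kb and the gene, no FLyA peak was listed, whereas FLyB peaks were listed 13.9, 4.3 and 1.6 kb upstream and at the start. The 10 HAND1 peaks found in FLyB only lay between 0.488 and 25.1 kb from the nearest FLyA peak, with a median of 6.45 kb. The median for all FLyB-only peaks of the list was 23.6 kb. The 2 medians are not alike, since the HAND1 distances are bounded by a window that also holds 3 FLyA peaks. A pair of FLyB peaks at 20.8 and 21.7 kb upstream sat next to the common site at 20.3 kb.

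The ISL1 window (chr5:50629000-50741000, gene body 50679 to 50691 kb, plus strand) also held peaks of 3 lists. Of the 7 FLyA peaks, 1 lay 3.8 kb upstream, 1 on the start, 3 farther into the gene body, at 6.1, 9.9 and 11.6 kb, and 2 beyond its end, at 15.0 and 61.0 kb. The 3 FLyB peaks lay near the start, at 6.2 kb and at 15.0 kb. Both media thus marked the body of the gene and the site just past its end, and of the 6 sites found in 1 medium, 5 were in FLyA and 1 in FLyB. The common sites were chr5:50684930-50685352 in the gene body and chr5:50693775-50694218 about 3 kb past the gene end. The second of these carried the Santa Cruz FLyB peak, 7 bp from the R&D Systems FLyB midpoint.

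**Figure D4:**
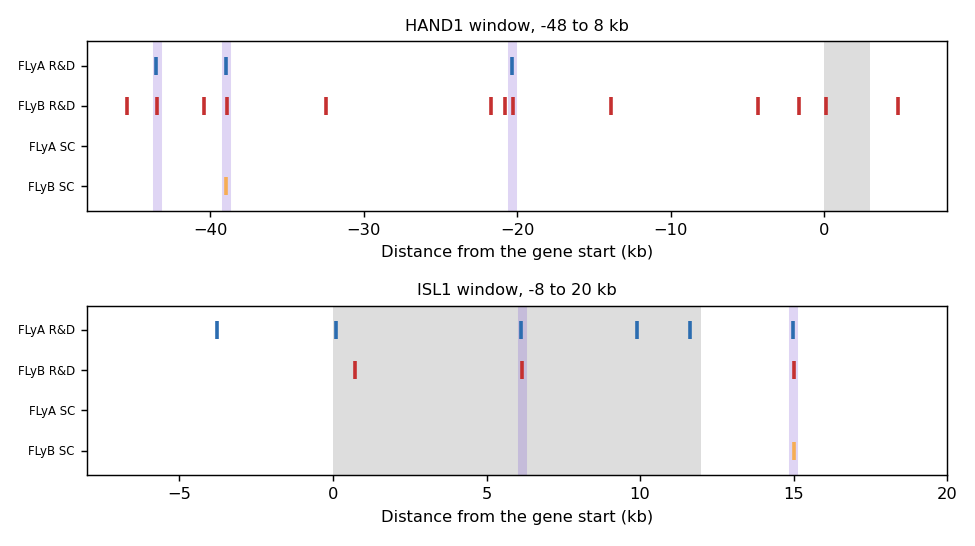
Peak midpoints at HAND1 (top) and ISL1 (bottom) by distance from the gene start in kb, with 1 row per list; grey marks the gene body and purple bands mark sites with an R&D Systems peak in both media. At HAND1 each of the 3 FLyA ticks sits on a FLyB tick, whereas at ISL1 only 2 of the 6 FLyA ticks drawn do, and the seventh FLyA peak, 61.0 kb from the start, is outside the range shown.

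At the ISL1 start each medium held a peak of its own list. The FLyA peak (chr5:50678911-50679310) and the FLyB peak (chr5:50679527-50679926) did not overlap, and their midpoints were 616 bp apart. With peaks at most 500 bp apart counted as shared, this pair is shared. The lists hold no heights or reads, and whether BRA bound at separate places here was not tested. HAND1 and ISL1 were the only genes of the 7 with an R&D Systems peak within 1 kb of the start, which the windows give to the nearest kb. Their promoters are shown because BRA peaks were listed next to them. The sequences are RefSeq's, build GRCh38.p14, and cover the 250 bases before the annotated start (HAND1, chr5:154478228-154478477, minus strand; ISL1, chr5:51383198-51383447, plus strand). They were not placed on the hg19 peaks. Capitals mark the letters CCAAT and TATAA on either strand, both common promoter elements.

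HAND1: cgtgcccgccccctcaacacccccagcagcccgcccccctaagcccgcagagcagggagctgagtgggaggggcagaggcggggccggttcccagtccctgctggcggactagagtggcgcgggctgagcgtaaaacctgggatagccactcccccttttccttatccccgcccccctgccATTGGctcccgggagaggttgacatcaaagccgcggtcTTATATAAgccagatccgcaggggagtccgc
ISL1: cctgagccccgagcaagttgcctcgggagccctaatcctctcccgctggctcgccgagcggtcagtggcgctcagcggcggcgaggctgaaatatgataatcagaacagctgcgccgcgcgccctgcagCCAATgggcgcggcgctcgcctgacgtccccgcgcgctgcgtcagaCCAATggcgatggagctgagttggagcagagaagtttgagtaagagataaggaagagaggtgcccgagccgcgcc

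The HAND1 promoter held TATAA on both strands, as overlapping matches that begin 31 and 28 bases before the start, the usual distance of a TATA box, and 1 CCAAT on the opposite strand, 69 bases before the start. The ISL1 promoter had no TATAA and held CCAAT at 121 and 75 bases before the start. On either strand, TATAA occurs in 18.9% and CCAAT in 32.0% of the 35116 promoters of the RefSeq table. The letters TCACACC, part of the T-box consensus, were searched on both strands and found in none of the 8 promoters available for 6 of the 7 genes (HAND1, HAND2, ISL1, MSX1 and MSX2 with 1 each, and BMP4 with 3). Nor was the longer TCACACCT, which contains them, or the shorter CACACC, which both contain. Of all promoters in the table, 2.76% hold the first form, 0.786% the longer and 14.2% the shorter. The absence of the letters says only that they are not in these windows, and the peaks themselves were not searched for want of a genome of their build.

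The MSX genes had FLyB peaks upstream of the start. In the MSX1 window (chr4:4811000-4916000, gene body 4861 to 4866 kb, plus strand) FLyB peaks lay 3.6 kb (chr4:4857177-4857576) and 2.4 kb (chr4:4858420-4858819) upstream and 8.4 kb beyond the start, past the gene end (chr4:4869251-4869650). The Santa Cruz FLyB peak lay closest to the start, 0.9 kb upstream (chr4:4859901-4860300). It overlapped no R&D Systems peak, the nearest FLyB midpoint being 1481 bp away. The single FLyA peak was in the gene body (chr4:4862958-4863357). No MSX1 site was thus found in both media or with both antibodies.

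In the MSX2 window (chr5:174102000-174208000, gene body 174152 to 174158 kb, plus strand) FLyB peaks lay 4.8 kb (chr5:174147044-174147443) and 4.1 kb (chr5:174147702-174148101) upstream. The site at 4.1 kb also held a Santa Cruz FLyB peak, 19 bp away, and the nearest R&D Systems FLyA peak was 27.7 kb away. It was the only site of the 7 genes that was found with both antibodies in FLyB and in no FLyA list. A further FLyB peak lay 10.7 kb beyond the start, past the gene end (chr5:174162501-174162900). The common site of both media lay 31.9 kb upstream (chr5:174119933-174120358) and was the only FLyA site of MSX2.

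HAND2, the paralogue of HAND1, had few peaks. In its window (chr4:174398000-174501000, gene body 174448 to 174451 kb, minus strand) FLyB peaks lay 1.7 kb upstream (chr4:174452516-174452915) and 39.3 kb beyond the start (chr4:174411466-174411865), and the FLyA peak lay in the gene body (chr4:174448513-174448912). The FLyA peak and the nearer FLyB peak were 4003 bp apart. In the RefSeq table the antisense gene HAND2-AS1 overlaps HAND2, so a peak here may lie in either gene. The protein-coding gene SCRG1 and genes of long non-coding RNAs lie within 50 kb on the downstream side. The FLyB peak 39.3 kb beyond the start is thus assigned to HAND2 by position only. HAND2 thus had 2 FLyB peaks where HAND1 had 13.

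The ligand genes had the fewest peaks. In the BMP4 window (chr14:54366000-54474000, gene body 54416 to 54424 kb, minus strand) the single FLyB peak lay 13.7 kb beyond the start, past the gene end (chr14:54410127-54410526). In the RefSeq table a protein-coding gene, LOC124903317, overlaps BMP4, so this peak too is assigned by position only. The nearest R&D Systems FLyA peak to the BMP4 start was 230 kb away. In the BMP2 window (chr20:6699000-6811000, gene body 6749 to 6761 kb, plus strand) the FLyA peaks lay 3.4 kb upstream (chr20:6745429-6745828) and 32.2 kb beyond the start (chr20:6780954-6781353). A FLyB peak lay 0.479 kb outside the edge of the BMP2 window (chr20:6698322-6698721), the closest of any peak outside, and the closest peak inside an edge was the FLyA peak 0.969 kb within the ISL1 window (chr5:50739832-50740231). Neither ligand gene had a Santa Cruz peak.

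By place, most FLyB peaks were upstream, largely through HAND1, and the FLyA peaks were spread. Of the 26 R&D Systems FLyB peaks, 17 were upstream, 2 within 1 kb of a start, 1 farther into a gene body and 6 downstream. Of the 15 FLyA peaks, 6 were upstream, 1 within 1 kb of a start, 5 farther into a gene body and 3 downstream. HAND1 gave 11 of the 17 upstream FLyB peaks and 3 of the 6 upstream FLyA peaks. The other 6 genes had 6 upstream and 5 downstream FLyB peaks. Place was not counted over the whole lists, so a difference between the media in place was not tested. Of the FLyA peaks in a gene body, 3 were at ISL1.

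The antibodies could be compared only where both had listed peaks, in FLyB. Among the 4 Santa Cruz peaks there, 3 lay on an R&D Systems FLyB peak (75.0%, exact 95% interval 19.4 to 99.4%), against 79.0% in the whole Santa Cruz FLyB list. From the other side, 3 of the 26 R&D Systems FLyB peaks (11.5%, 2.45 to 30.2%) lay on a Santa Cruz peak, against 10.0% in the whole list. In FLyA, none of the 15 R&D Systems peaks did (0%, up to 21.8%), against 3.02% in the whole list. Each share of the whole list lies inside the interval of the windows. The 3 sites found with both antibodies belong to HAND1, ISL1 and MSX2, and 2 of them also held an R&D Systems FLyA peak.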

How the data were processed

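ChIP DNA was sequenced with an Illumina Genome Analyzer II. The submitters' processing notes name Bowtie 0.12.7 and hg19, and peaks were called with MACS by the authors, who deposited 1 list of peak positions per library, with no other value. Per the file headers, the Santa Cruz lists used a MACS threshold of 1e-12. For the R&D Systems lists the threshold is not given in the sources used here. Input DNA served the authors as the control for enrichment, but whether MACS was run against it is not stated. Weak sites may therefore be missing from either medium, and the lengths of the lists are not comparable between antibodies. Read depth is not in the lists. The study describes the Santa Cruz libraries as having fewer uniquely mapped reads.

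The members and lists were chosen with earlier results of these data known. All 7 genes are described, with every site found with both antibodies or in both media and the site nearest to each start. Gene bodies are the windows less 50 kb at each end, so distances from a start are good to about 1 kb. Strands come from the RefSeq promoter table, except that of BMP2. Peaks were shared if they overlapped by 1 bp or more, and overlap counts were checked with bedtools 2.31.1 for all pairs of lists. Shares have exact (Clopper-Pearson) intervals from SciPy 1.17.1, in Python 3.11.15. Figures used matplotlib 3.10.9. The functions were tested on simulated data. Tiles run from the first base of each chromosome to its last peak. The groups are medium and antibody, with 1 library each. The media were compared over the 4 lists by an exact permutation test, also paired by antibody, both added after the data were seen. A search of the peaks for T-box letters and counts at other BMP pathway genes were set out but need a genome and an annotation of hg19 and were not run.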

Additional observations from a re-analysis of the deposited data

Results flagged for a closer look

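At ISL1 the count of FLyB peaks relative to FLyA differed in sign between the antibodies. The FLyB count minus the FLyA count was -4 with the R&D Systems antibody (3 and 7 peaks) and 1 with the Santa Cruz antibody (1 and 0 peaks). The difference was not tested, since each antibody gave a single library in each medium. The Santa Cruz value rests on 1 peak, at a site that the R&D Systems lists hold in both media, and the Santa Cruz FLyA list held no peak in any of the 7 windows, so an opposite balance is not shown.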

How the results depend on the processing

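The counts moved with the width of the windows. With 20 kb on either side of the genes they held 9 FLyA and 16 FLyB R&D Systems peaks, and with 100 kb they held 26 and 40. Only 0 FLyA and 3 FLyB R&D Systems peaks lay on a Santa Cruz peak of the same medium, and the Santa Cruz lists alone held 0 and 4. Leaving out 1 gene at a time, an alternative chosen after seeing the data, gave 8 to 15 FLyA peaks, the lowest without ISL1, and 13 to 26 FLyB peaks, the lowest without HAND1. At HAND1 the FLyA and FLyB counts were 0 and 5 with 20 kb, and 5 and 18 with 100 kb. At ISL1 they were 6 and 3, and 8 and 3. At BMP2 they were 1 and 0, and 6 and 4, so that its lack of FLyB peaks holds for the narrower windows only. With 20 kb, MSX1 and MSX2 held 3 FLyB peaks each, so HAND1 stood less far apart at that width. Any overlap with a window selected the same number of peaks as the midpoint. The shares of peaks found in 1 medium stayed inside their intervals under all overlap rules, flanks and left-out genes. These intervals are wide, so this is a weak check. Counting either antibody in the other medium left the shares at 60.0% in FLyA and 76.9% in FLyB. It could not change them, since no Santa Cruz peak of the other medium lay on a peak found in 1 medium only. With peaks at most 500 bp apart counted as shared, the shares were 53.3% in FLyA and 69.2% in FLyB. With 20 kb flanks, which gave the highest values, they were 77.8% and 87.5%. The share of Santa Cruz FLyB peaks on R&D Systems peaks was 75.0% under each overlap rule. With the antibody as replicate block, chosen after seeing the data, the mean difference between the media is 7.5 peaks per list by arithmetic. It had to equal the unblocked value and is no check of it. The exact paired permutation test gave p = 0.5, the smallest that 2 pairs allow. A stricter threshold was not run, as the lists have no score, and the T-box alternatives were not run for want of an hg19 genome. The lists give no read depth, so a peak missing from a list may be a site too weakly covered to be called.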
